A study of Mus musculus with 20 samples.

Results

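Liver RNA of 15 high-fat-fed mice was ordered by the abundance of Dbp relative to Arntl, a pair of circadian clock genes that peak at opposite times of day in liver, and the 7 livers with the highest ratio were compared with the 7 livers with the lowest. The middle liver was left out, so 14 of the 20 livers of the series entered the comparison. The mice were female C57BL/6J, and their livers were collected at 28 weeks of age, after a first 10-week period on chow or a high-fat diet (HFD) and a second one of equal length, in which the HFD drew part of its protein from fishmeal of salmon by-products, from salmon filet or from beef. By the labels 5 mice ate chow, 5 fishmeal, 6 salmon filet and 4 beef, with 1 library for each mouse. The labels name no genetic modification, and the clock time at which each liver was taken is not among them.

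The circadian clock is a loop of transcription factors. CLOCK or its relative NPAS2 pairs with BMAL1, the product of Arntl, and activates genes that carry E-boxes, among them the Per and Cry genes, whose products then inhibit the activators. REV-ERB proteins, encoded by Nr1d1 and Nr1d2, and ROR proteins compete for sites that repress or activate Arntl, and the PAR bZIP factors DBP, TEF and HLF activate genes through D-boxes against their repressor NFIL3. In liver this loop times the expression of many genes of lipid, glucose, bile acid and xenobiotic metabolism.

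The ratio was the log2 of Dbp over Arntl, each in CPM, counts scaled to the total of the library, with 0.1 added. These 2 genes chose the groups and are therefore described without a test. In the low-ratio livers Dbp was 1.161 to 12.0 CPM with a median of 5.98, and Arntl was 21.0 to 35.9 with a median of 26.4. In the high-ratio livers Dbp was 28.1 to 109 CPM with a median of 47.5, and Arntl was 4.49 to 14.6 with a median of 7.06. The low-ratio livers came from salmon mice 31, 22, 26 and 27, fishmeal mice 16 and 13 and beef mouse 32, with ratios of -4.84 to -0.80. The high-ratio livers came from salmon mice 23 and 25, fishmeal mice 14 and 20 and beef mice 35, 39 and 40, with ratios of 0.94 to 4.57. At the border, salmon mouse 27 had a ratio of -0.80, the omitted fishmeal mouse 12 had -0.49 and salmon mouse 23 had 0.94. The chow-fed livers had ratios of -5.57 to -3.66, below all HFD livers except salmon mouse 31, which lay among them at -4.84.

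**Figure D1:**
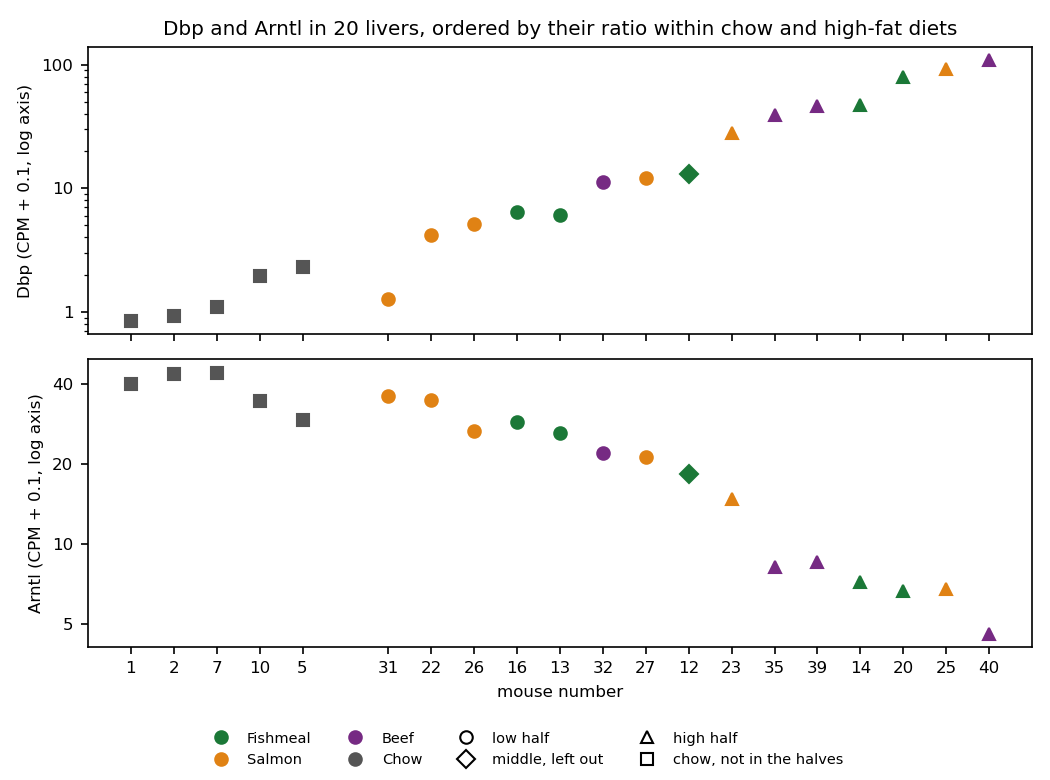
Dbp (top) and Arntl (bottom) in each of the 20 livers, as CPM plus 0.1 on log axes, with mice ordered by the ratio within chow (left) and HFD (right). Colour gives the diet by the label and shape the group, and Dbp ran from 1.161 to 109 CPM across the HFD livers while Arntl ran from 35.9 to 4.49.

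Libraries held 42526234 to 70266136 counts on genes, so counting error was small for all but the rarest genes named below. The share of counts on protein coding genes was 84.3% in beef mouse 35, a high-ratio liver, and 93.2% to 95.6% in all other livers. Salmon mouse 31, the liver with the lowest ratio, is labelled as salmon-fed, whereas its column in the deposited counts is headed beef. The paper reports the same number of livers for each diet, which the header gives and the labels do not. By the header the low-ratio livers would be 3 salmon, 2 fishmeal and 2 beef. The label was used in the model, and the header's diet in an alternative fit. Because the diets were spread unevenly over the groups (low-ratio 4 salmon, 2 fishmeal and 1 beef; high-ratio 2 salmon, 2 fishmeal and 3 beef), diet was a term in the model. In whole liver, fewer cells of a type and less RNA per cell cannot be told apart.

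Upstream sequence is shown for 3 clock genes whose RNA differed between the groups and whose promoters hold motifs of the loop, 1 with E-boxes that was higher (Ciart), 1 with an E-box that was lower (Cry1) and 1 with D-boxes (Per3). Each run gives the 250 bases before the start of transcription in RefSeq on mouse GRCm38.p6, read on the strand of the gene, and capitals mark motif matches.
Ciart, chr3:95882229-95882478, minus strand: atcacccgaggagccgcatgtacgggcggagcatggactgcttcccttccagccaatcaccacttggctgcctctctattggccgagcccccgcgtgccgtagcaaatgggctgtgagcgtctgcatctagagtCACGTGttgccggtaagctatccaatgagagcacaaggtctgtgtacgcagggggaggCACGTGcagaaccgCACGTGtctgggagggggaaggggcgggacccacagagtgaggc
Cry1, chr10:85185055-85185304, minus strand: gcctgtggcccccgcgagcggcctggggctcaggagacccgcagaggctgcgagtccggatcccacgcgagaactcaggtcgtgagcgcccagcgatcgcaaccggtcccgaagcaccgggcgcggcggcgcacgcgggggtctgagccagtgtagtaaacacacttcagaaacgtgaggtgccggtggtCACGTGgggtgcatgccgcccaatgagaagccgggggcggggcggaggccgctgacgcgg
Per3, chr4:151044666-151044915, minus strand: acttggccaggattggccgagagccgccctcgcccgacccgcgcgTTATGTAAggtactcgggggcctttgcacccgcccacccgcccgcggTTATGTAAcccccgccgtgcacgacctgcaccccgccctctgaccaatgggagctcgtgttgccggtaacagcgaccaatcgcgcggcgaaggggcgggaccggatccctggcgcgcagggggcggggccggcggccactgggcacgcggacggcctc
The searched motifs were the E-box CACGTG, which reads the same on both strands, the D-box TTATGTAA or TTACGTAA, and the ROR element core TAGGTCA, each on both strands in the window from 250 bases before to 50 bases after the start. Matches of the motifs do not overlap in these promoters. Ciart held 3 E-boxes, which began 116, 58 and 44 bases before the start. Cry1 held 1 E-box, 60 bases before the start. Per3 held 2 D-boxes, 205 and 158 bases before the start. Over all 32851 promoters in the table, 7.15% held an E-box, 1.06% a D-box and 2.61% a ROR core. Other named genes with a match were Bhlhe41, Per1, Tef and Tspan4 with an E-box, Nfil3 with a ROR core and G6pc with a D-box and a ROR core. A match describes letters in the window and is not evidence of binding.

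Among 17260 genes tested with edgeR's quasi-likelihood test, 105 differed between high-ratio and low-ratio livers at a Benjamini-Hochberg adjusted p under 0.05, which is 0.608% of those tested. Higher in the high-ratio livers were 58 genes (0.336%) and lower were 47 (0.272%). With upper quartile normalisation the split was 40 higher and 56 lower. The test asks whether a gene differed between the groups that Dbp and Arntl gave, with diet as a term, and it says nothing of a treatment. The order of the livers within a group did not enter it. All 105 genes had the same sign of difference within each of the 3 diets, the beef contrast having 1 low-ratio liver by the labels. The same livers, with diet in the model, chose these genes, so this agreement is no separate support. In 65 of the 105 the 7 high-ratio and 7 low-ratio values did not overlap, against 144 non-overlapping genes, or 0.834%, among all tested. An unadjusted p under 0.05 was reached by 3035 of the 17260 genes, and 8247 of the 17260 differences were above 0. The median log2 difference over all genes was -0.01. Counts by edgeR within the gene lists below are to be read against these shares. DESeq2 called 567 of the 29831 genes it fitted, 368 higher and 199 lower. List counts by DESeq2 are to be read against those numbers.

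The count of called genes depended on single livers. Leaving out beef mouse 32, by the labels the single low-ratio beef liver, left 6 calls, namely Per3, Tef, Npas2, Cry1, Desi2 and Gm7972. The other beef livers then no longer bore on the difference, and whether this lowered the count was not tested. Leaving out fishmeal mouse 20 left 26 calls and leaving out fishmeal mouse 13 gave 1093. Leaving out fishmeal mouse 16, salmon mouse 22, 23, 25, 26 or 31 or beef mouse 40 gave 46 to 60 calls, and leaving out fishmeal mouse 14, salmon mouse 27 or beef mouse 35 or 39 gave 72 to 123. The 105 genes kept their direction in each of these fits. Taking mouse 31 as beef-fed gave 207 calls, of which 104 were among the 105. Of the 37 named genes that were called, 33 lost the call without beef mouse 32, and Per3, Tef, Npas2 and Cry1 kept it whichever liver was left out.

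Of the activators, Npas2 fell, and Clock, Arntl2 and Rora did not pass the edgeR test of the main comparison. Npas2, which can stand in for CLOCK beside BMAL1, was 5.91 to 16.1 CPM with a median of 9.98 in the low-ratio livers and 0.842 to 3.35 with a median of 1.24 in the high-ratio livers. The groups did not overlap, and the high-ratio value nearest to the low-ratio livers was that of salmon mouse 23, which also had the ratio nearest to them. Its log2 difference was -2.56 (SE 0.32, adjusted p = 0.00463), with -3.02 within fishmeal, -2.57 within salmon and -2.17 within beef. Clock was 50.6 to 72.1 CPM in the low-ratio livers and 33.8 to 53.2 in the high-ratio livers, with overlap between the groups and a log2 difference of -0.51 (95% interval -0.77 to -0.25, adjusted p = 0.0768). DESeq2 called Clock, as did edgeR without a filter on low counts, without the diet term, on the continuous ratio and with mouse 31 as beef-fed. So did the fits without fishmeal mouse 13 and without fishmeal mouse 14. Arntl2, a paralogue of Arntl, differed by -0.06 (95% interval -0.37 to 0.24) and Rora by -0.17 (-0.37 to 0.02). Rorb had too few counts to be tested.

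All 10 PER, CRY and other repressor genes reached an unadjusted p under 0.05, and edgeR called 6, 5 of them higher and Cry1 lower, where DESeq2 called 8 higher and 1 lower. Their median log2 difference was 1.01 against -0.01 over all genes tested. Per3, a period gene, was 2.65 to 10.96 CPM with a median of 5.59 in the low-ratio livers and 14.8 to 67.6 with a median of 30.6 in the high-ratio livers. The groups were apart, and the log2 difference was 2.32 (SE 0.33, adjusted p = 0.00901), with 2.35, 2.40 and 1.81 within fishmeal, salmon and beef. Per2, which encodes a partner of the cryptochromes, was 9.94 to 18.6 CPM in the low-ratio livers and 16.1 to 45.9 in the high-ratio livers. Only salmon mouse 23 lay within the low-ratio range, the log2 difference was 0.98 (SE 0.21, adjusted p = 0.0496), and the call held in 3 of the 14 fits that left out 1 liver. Per1 was 3.21 to 16.8 CPM against 12.4 to 37.7, with overlap, and its log2 difference of 1.155 had an adjusted p of 0.108 by edgeR. DESeq2 called Per1, as did edgeR without a filter on low counts, without the diet term, on the continuous ratio and without salmon mouse 27.

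Cry1 and Cry2 encode the cryptochromes, the main inhibitors of the activators, and Cry1 differed in the direction opposite to the Per genes. Cry1 was 9.19 to 18.0 CPM with a median of 13.5 in the low-ratio livers and 4.83 to 6.73 with a median of 5.73 in the high-ratio livers. The groups did not overlap and the high-ratio values spanned a narrow range. The log2 difference was -1.09 (SE 0.14, adjusted p = 0.00640), with -1.18, -1.01 and -0.98 within fishmeal, salmon and beef. Cry2 was 28.6 to 36.7 CPM in the low-ratio livers and 38.09 to 56.8 in the high-ratio livers. Its groups did not overlap either, but the log2 difference of 0.46 had an adjusted p of 0.0714 and was not called by edgeR. DESeq2 called it, as did edgeR without a filter on low counts, without the diet term, with mouse 31 as beef-fed and without fishmeal mouse 13.

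Nr1d1, which encodes the repressor REV-ERBα, was 51.9 to 108 CPM with a median of 92.6 in the low-ratio livers and 151 to 222 with a median of 172 in the high-ratio livers. No value of one group lay within the other, and the log2 difference was 1.05 (SE 0.16, adjusted p = 0.0121). Of its exonic 50-base words 7.27% also occur in Thra on the other strand, and counting by strand is not stated. Nr1d2 was 35.2 to 73.6 CPM against 63.0 to 119, with overlap, and its log2 difference of 0.65 was not called by edgeR (adjusted p = 0.0916). DESeq2 called Nr1d2, as did edgeR without a filter, without the diet term, on the continuous ratio and with the 5 highest against the 5 lowest livers. Per length, Nr1d1 had the highest mean of the listed clock genes in the deposited TPM, which are scaled for gene length and library size, at 71.6 ± 19.5 (SD, n = 7) in the low-ratio and 140 ± 14.4 (n = 7) in the high-ratio livers.

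Ciart, which encodes the repressor CHRONO, was 0.199 to 0.821 CPM with a median of 0.387 in the low-ratio livers and 1.21 to 9.25 with a median of 1.58 in the high-ratio livers. The groups were apart, with a wide spread among the high-ratio livers, and the log2 difference of 2.86 (SE 0.52, adjusted p = 0.0233) was the largest among named genes. Its call held in 8 of the 14 fits that left out 1 liver, and 11.9% of its 50-base words are shared with Gm9176. Bhlhe41, which encodes the E-box repressor DEC2, was 0.126 to 1.21 CPM in the low-ratio livers and 1.11 to 2.82 in the high-ratio livers. Fishmeal mouse 16 was the low-ratio liver that reached the high-ratio range, and the log2 difference was 2.21 (SE 0.37, adjusted p = 0.0173), with 16.4% of words shared with Gm43909, which overlaps it on the other strand. Its relative Bhlhe40 was 44.7 to 185 CPM against 111 to 183, with a log2 difference of 0.82. Bhlhe40 was not called by edgeR (adjusted p = 0.169) or by DESeq2. It was called by edgeR without a filter on low counts and without fishmeal mouse 16.

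**Figure D2:**
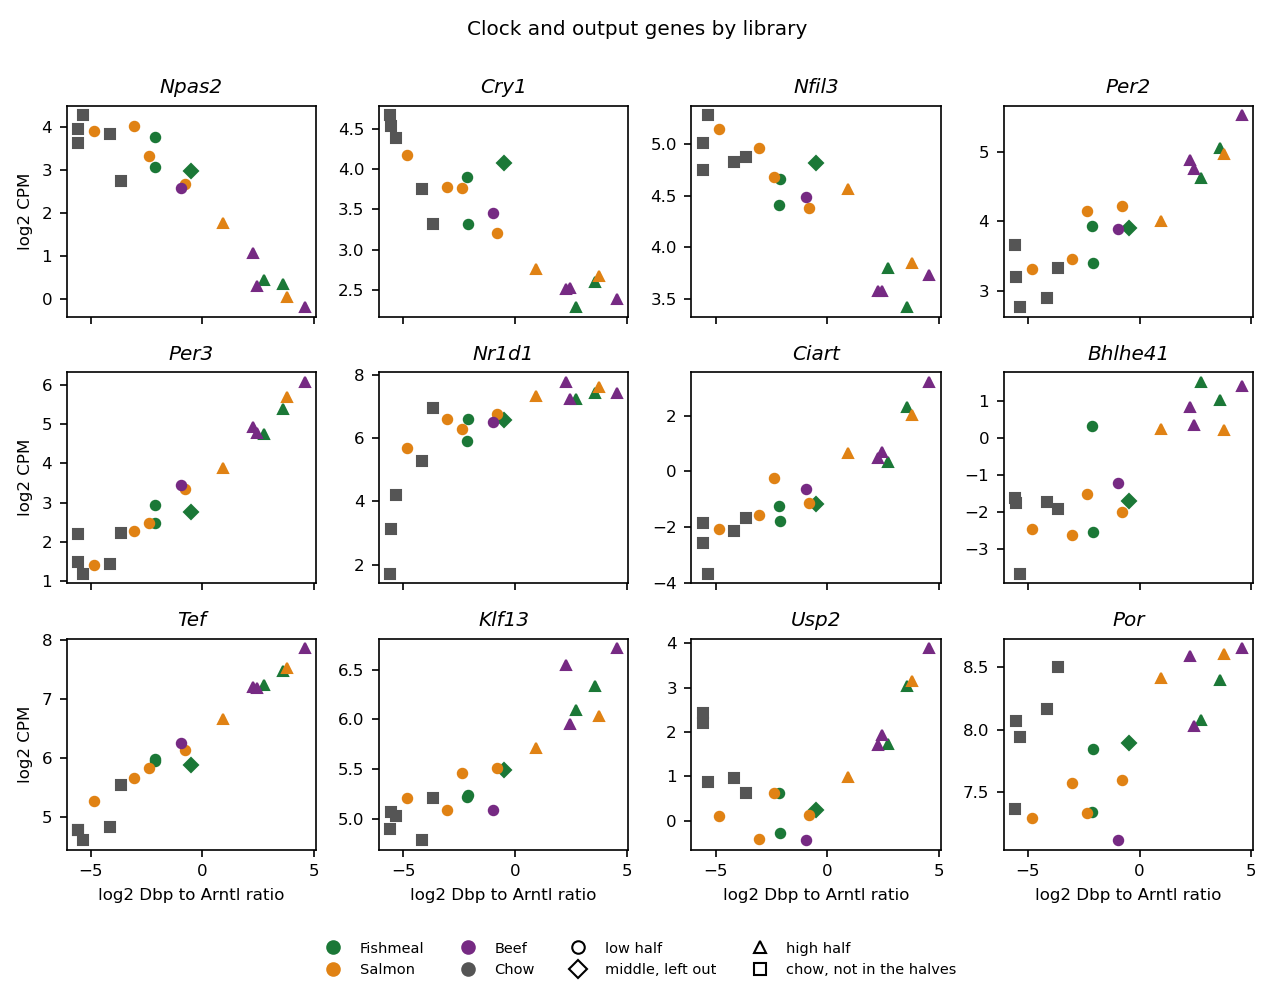
Log2 CPM (prior count 2) of 12 clock and output genes in each of the 20 livers, plotted against the log2 ratio of Dbp to Arntl, with colour for diet and shape for group. Npas2 and Cry1 were lower and Per3 and Tef higher in all 7 high-ratio livers, and Usp2 in chow-fed livers lay off the course of the HFD livers.

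Of the PAR bZIP factors other than Dbp, Tef rose and Hlf passed the test of DESeq2 but not that of edgeR, and their repressor Nfil3 fell. Tef was 38.6 to 76.3 CPM with a median of 62.2 in the low-ratio livers and 100.9 to 232 with a median of 151 in the high-ratio livers. The groups did not overlap, and beef mouse 40, with the highest ratio, also had the highest Tef. The log2 difference was 1.34 (SE 0.16, adjusted p = 0.00463), with 1.38, 1.36 and 1.164 within fishmeal, salmon and beef. Hlf was 47.4 to 69.2 CPM against 57.4 to 91.6, with overlap, and differed by 0.33 (95% interval 0.12 to 0.53, adjusted p = 0.130 by edgeR). Nfil3 was 20.7 to 35.4 CPM in the low-ratio livers and 10.6 to 23.7 in the high-ratio livers. Salmon mouse 23 alone reached the low-ratio range at 23.7 CPM, and the log2 difference was -0.75 (SE 0.14, adjusted p = 0.0291). The call held in 7 of the 14 fits that left out 1 liver and was lost without mice 31 and 35.

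The kinases and ubiquitin ligases that set the stability of PER and CRY proteins were not called in either direction, with 0 of 6 called by edgeR and by DESeq2 and 1 at an unadjusted p under 0.05. Csnk1d and Csnk1e, which encode casein kinases that phosphorylate PER proteins, differed by 0.13 (95% interval -0.04 to 0.29) and 0.26 (0.00 to 0.51). Fbxl21, Btrc and Gsk3b, which encode other ligase subunits and a kinase, differed by -0.03, -0.04 and -0.14.

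Of 18 genes chosen as direct outputs of the clock, 5 were called and all were higher, with a median log2 difference of 0.50. Differences ran from -0.84 to 2.53, 13 of the 18 were above 0, and 15 genes had an unadjusted p under 0.05. Upper quartile factors gave 3 called higher and 1 called lower. Usp2, which encodes a ubiquitin protease, was 0.701 to 1.51 CPM in the low-ratio livers and 1.96 to 14.8 in the high-ratio livers. Its groups were apart with a wide range among the high-ratio livers, and the log2 difference was 2.53 (SE 0.45, adjusted p = 0.0209). Por, which encodes the electron donor of the microsomal P450 enzymes, was 138 to 230 CPM with a median of 162 against 260 to 403 with a median of 342. No values overlapped, and the log2 difference was 0.99 (SE 0.14, adjusted p = 0.00901). Klf13, a Krüppel-like transcription factor, was 34.0 to 45.5 CPM against 52.5 to 105, without overlap, and rose by 0.89 on the log2 scale (SE 0.15, adjusted p = 0.0168). Wee1, which encodes a kinase that delays entry into mitosis, was 1.63 to 2.53 CPM against 2.29 to 7.66, with overlap, and rose by 1.225 (SE 0.26, adjusted p = 0.0469). Tspan4, a tetraspanin, was 6.45 to 10.9 CPM against 11.2 to 31.5 and rose by 1.04 (adjusted p = 0.0485), with 10.9% of its words shared with Chid1 on the other strand. The calls of Wee1 and Tspan4 held in 5 and 3 of the 14 fits that left out 1 liver. Nampt, whose product makes a precursor of NAD, differed by 0.14 and was not called (adjusted p = 0.646).

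**Figure D3:**
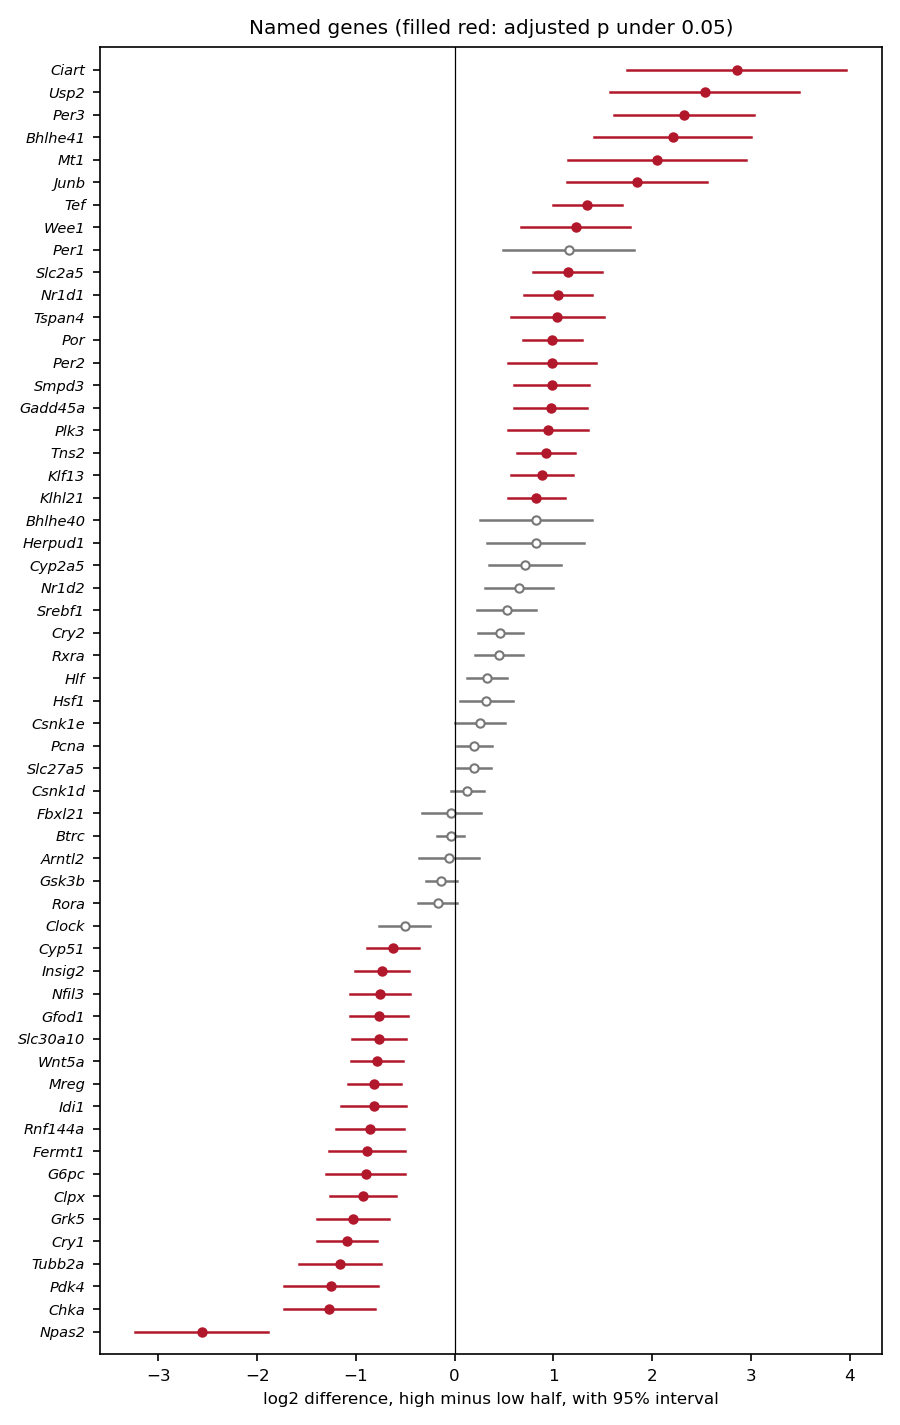
Log2 difference between high-ratio and low-ratio livers with its 95% interval for the 57 named genes, from edgeR with diet as a term (7 livers in each group). Filled red points are the 37 genes with an adjusted p under 0.05, from Npas2 at -2.56 to Ciart at 2.86.

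Outside the clock lists, named genes were the called protein coding genes with the largest differences and no overlap between the groups. Among those higher was Slc2a5, which encodes a fructose transporter, at 2.67 to 4.32 CPM in the low-ratio and 5.73 to 10.7 in the high-ratio livers, a log2 difference of 1.144 (SE 0.16, adjusted p = 0.00901). Tns2, which encodes the focal adhesion protein tensin 2, was 37.7 to 63.5 CPM against 85.0 to 110, a difference of 0.92 (SE 0.14, adjusted p = 0.00928). Gadd45a and Plk3, which respond to DNA damage and stress, were 3.43 to 5.50 against 5.75 to 12.1 CPM and 9.10 to 18.4 against 19.0 to 41.4 CPM. Both had groups that lay apart, with log2 differences of 0.97 and 0.94. Smpd3, a sphingomyelinase gene, rose by 0.98 from a low level of 0.774 to 1.37 CPM, and Klhl21, a ubiquitin ligase adaptor gene, rose by 0.83. Of their 50-base words, Gadd45a shares 15.6% with E230016M11Rik, which overlaps it on the other strand, and Klhl21 shares 19.8% with Gm9768, which does the same, and with genes elsewhere.

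Among the genes that fell, Chka, which encodes the first kinase of phosphatidylcholine synthesis, was 67.7 to 160 CPM with a median of 98.3 in the low-ratio and 30.9 to 58.7 with a median of 39.0 in the high-ratio livers. The groups did not overlap, and the log2 difference was -1.27 (SE 0.22, adjusted p = 0.0173). Clpx, which encodes the unfoldase subunit of a mitochondrial protease, was 212 to 332 CPM against 82.2 to 181, a difference of -0.93 (SE 0.16, adjusted p = 0.0173). Grk5, a receptor kinase gene, was 10.1 to 20.3 against 5.03 to 8.78 CPM, and Slc30a10, which encodes a manganese exporter, was 65.3 to 112 against 41.9 to 62.4 CPM. Both sets were apart, with log2 differences of -1.03 and -0.77. Wnt5a, a Wnt ligand gene, was 3.20 to 4.41 against 1.68 to 2.41 CPM, a difference of -0.78 (SE 0.12, adjusted p = 0.0129). Fermt1, Rnf144a, Mreg and Gfod1 fell by 0.89, 0.86, 0.81 and 0.77 on the log2 scale. Tubb2a, a beta-tubulin gene, fell by 1.165, but 49.6% of its 50-base words are shared with Tubb2b and other copies, so its value is uncertain. Smpd3, Rnf144a, Plk3 and Fermt1 kept their calls in 9, 8, 6 and 3 of the 14 fits that left out 1 liver.

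In cholesterol synthesis 2 of 21 genes were called, both lower, and 17 of 21 differences were below 0, with a median log2 difference of -0.19. Over all 17260 genes tested, 8247 differences were above 0. Of the 21 genes, 10 had an unadjusted p under 0.05, against 3035 of all genes tested. DESeq2 called 6, all lower, where it called 567 of all 29831 genes fitted, 199 of them lower. Idi1, which encodes the isomerase that supplies isoprenoid units, was 27.3 to 130 CPM in the low-ratio and 17.4 to 80.8 in the high-ratio livers. The groups overlapped widely across diets, yet the difference within diets was -0.79, -0.94 and -0.67 in fishmeal, salmon and beef, and the fitted difference was -0.82 (SE 0.15, adjusted p = 0.0277). Of its 50-base words 25.3% are shared with Gm13502 and others. Cyp51, which encodes lanosterol demethylase, was 48.2 to 179 against 29.0 to 112 CPM, with overlap, and differed by -0.63 (SE 0.12, adjusted p = 0.0351). The calls of Idi1 and Cyp51 held in 8 and 3 of the 14 fits that left out 1 liver, and both were lost without the diet term, on the continuous ratio and with 5 against 5 livers.

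Of 11 tested genes of sterol uptake and SREBP-2 control only Insig2 was called. Insig2, which encodes a sterol-sensing retention factor of the SREBP proteins, was 228 to 368 CPM with a median of 276 in the low-ratio and 137 to 220 with a median of 170 in the high-ratio livers. The groups did not overlap, and the log2 difference was -0.73 (SE 0.13, adjusted p = 0.0209), a call held in 9 of the 14 fits that left out 1 liver.

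No gene of bile acid synthesis was called by edgeR or DESeq2 (0 of 12, with 1 at an unadjusted p under 0.05). Cyp7a1, the rate-limiting enzyme of that pathway, differed by 0.43 (adjusted p = 0.378). In fatty acid synthesis edgeR called 0 of 14 genes, with 4 at an unadjusted p under 0.05, and DESeq2 called 1 higher and 1 lower. Srebf1, which encodes the lipogenic regulator SREBP-1, was 202 to 362 CPM against 287 to 446, with overlap, and differed by 0.53 (adjusted p = 0.105 by edgeR). DESeq2 called Srebf1, as did edgeR without a filter, without the diet term, without fishmeal mouse 14 and without fishmeal mouse 16. Fasn, the fatty acid synthase gene, differed by 0.30 and Scd1, a desaturase gene, by -0.30, neither of them called.

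Pdk4, whose product inhibits the entry of pyruvate into oxidation, was the 1 called gene of 20 in fatty acid oxidation and PPAR-alpha targets. It was 12.9 to 40.1 CPM with a median of 27.0 in the low-ratio and 7.63 to 16.0 with a median of 8.65 in the high-ratio livers. The groups overlapped at their edges, and the log2 difference was -1.25 (SE 0.22, adjusted p = 0.0209), with -0.72, -1.42 and -1.60 within fishmeal, salmon and beef. The call of Pdk4 held in 12 of the 14 fits that left out 1 liver. It was lost on the continuous ratio, with 5 against 5 livers and without mice 31 and 35. Of 17 genes of glucose and glycogen metabolism G6pc, which encodes the last enzyme of glucose release, was called. G6pc was 186 to 432 CPM against 107 to 216, with overlap, and differed by -0.90 (SE 0.19, adjusted p = 0.0448), a call held in 2 of the 14 fits that left out 1 liver. Pck1, an earlier enzyme of glucose production, differed by 0.37 (adjusted p = 0.179).

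Among 17 genes of xenobiotic metabolism edgeR called 0, with 7 at an unadjusted p under 0.05, and DESeq2 called 1 higher and 1 lower. Cyp2a5, a P450 gene, was 245 to 406 CPM against 288 to 763, with overlap, and differed by 0.71 (adjusted p = 0.0810 by edgeR). DESeq2 called Cyp2a5, as did edgeR without a filter, on the continuous ratio, with 5 against 5 livers and with mouse 31 as beef-fed. So did the fits without fishmeal mouse 13 and without salmon mouse 23. Of its 50-base words 37.0% are shared with Cyp2a4 and a pseudogene. The list of other nuclear receptors had 0 of 12 called by edgeR, 4 at an unadjusted p under 0.05 and 1 called by DESeq2. Rxra, the common partner of many nuclear receptors, differed by 0.45 (adjusted p = 0.0972 by edgeR). DESeq2 called Rxra, as did edgeR without a filter and without fishmeal mouse 13.

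**Figure D4:**
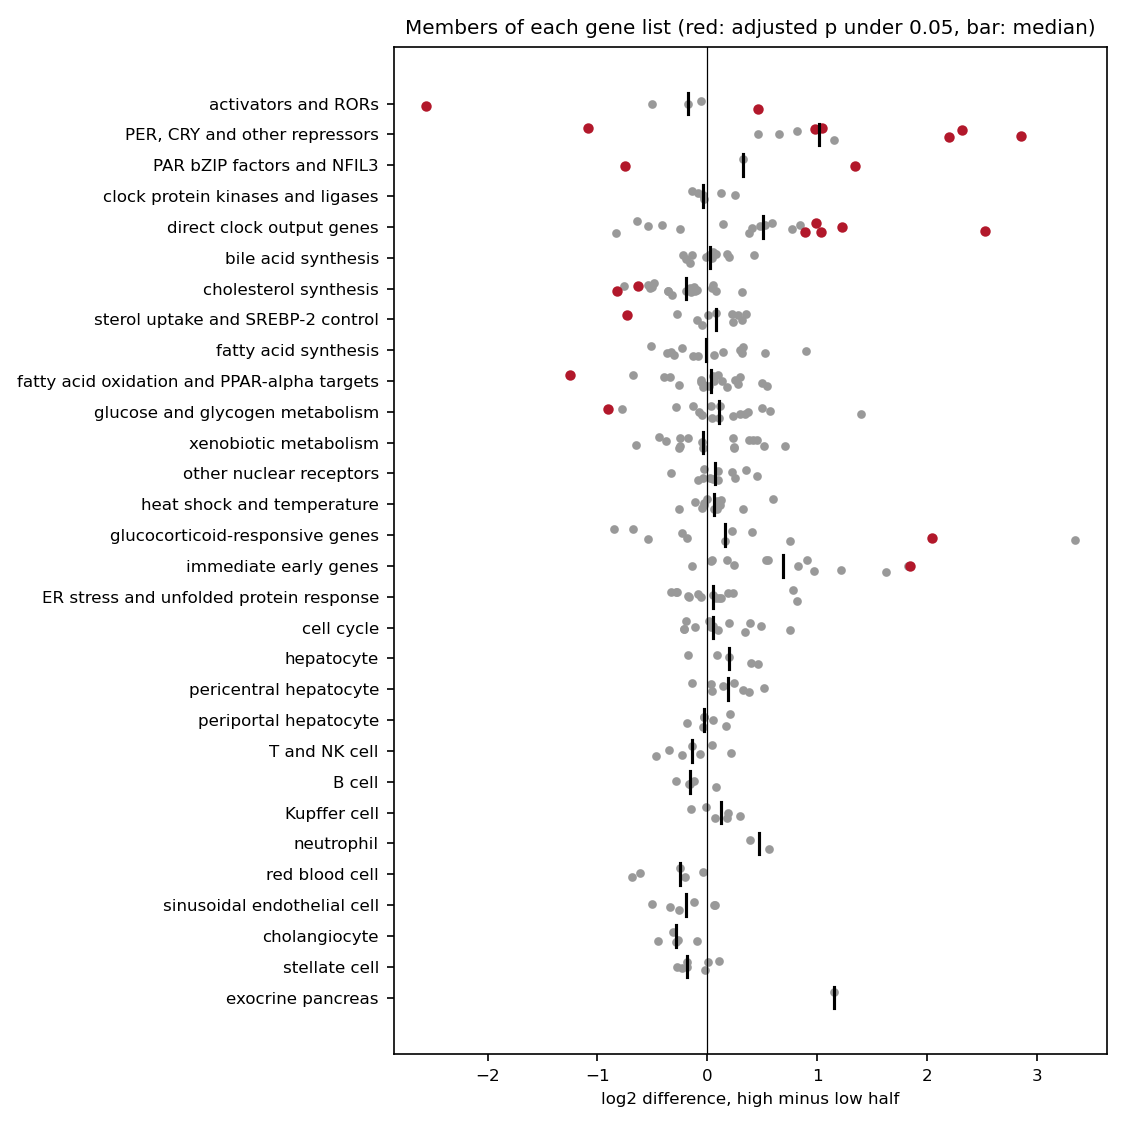
Log2 difference between high-ratio and low-ratio livers for each tested gene of 30 lists, with the median of each list as a bar and genes with an adjusted p under 0.05 in red. The repressor list has a median of 1.01 and the immediate early list 0.69, and no gene of the cell type lists was called.

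Genes that respond to signals other than the clock were read for comparison. Of 14 immediate early genes, which respond within minutes to growth factors and stress, 13 had a difference above 0 (11 with upper quartile factors). The median was 0.69, 7 had an unadjusted p under 0.05, and Junb alone was called by edgeR. Junb was 2.10 to 6.25 CPM with a median of 4.91 in the low-ratio and 6.24 to 21.7 with a median of 16.8 in the high-ratio livers. The groups met at their edges, and the log2 difference was 1.85 (SE 0.33, adjusted p = 0.0211). The call of Junb held in 11 of the 14 fits that left out 1 liver. It was lost on the continuous ratio, with 5 against 5 livers and without mice 31 and 35. Jun and Fos had differences of 1.63 and 1.83 that were not called (adjusted p = 0.0808 and 0.173). Of 11 glucocorticoid-responsive genes Mt1, a metallothionein gene, was called at 6.62 to 20.8 CPM against 14.0 to 128. Its groups overlapped, and the log2 difference was 2.05 (SE 0.42, adjusted p = 0.0429), being 0.46 within fishmeal, 3.04 within salmon and 1.96 within beef, with the call held in 3 of the 14 fits that left out 1 liver. Across this list 6 of 11 differences were above 0, and 4 genes had an unadjusted p under 0.05 by edgeR. The differences ran from -0.85 to 3.35, with a median of 0.16. Fkbp5 and Tsc22d3, which follow glucocorticoid receptor activity, differed by 0.22 and 0.16 without a call.

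Heat shock and temperature genes (0 of 13 called by edgeR and DESeq2, 1 at an unadjusted p under 0.05) and cell cycle genes (0 of 13 by both, 1 at an unadjusted p under 0.05) had medians of 0.06 and 0.05. Hsf1, the heat shock factor gene, and Pcna, a replication gene, had the smallest p in these lists, with differences of 0.32 and 0.20, and 19.1% of the words of Pcna are shared with a pseudogene. Among the 15 genes of the unfolded protein response edgeR called 0, with 2 at an unadjusted p under 0.05, and DESeq2 called 2. Herpud1, a gene of that response, was 106 to 203 CPM against 143 to 375 and differed by 0.82 (adjusted p = 0.122 by edgeR). DESeq2 called Herpud1, as did edgeR without a filter, without the diet term and on the continuous ratio.

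Markers of liver cell types were summed to see whether composition moved with the ratio. No member of the 13 cell type lists was called by edgeR, and DESeq2 called 1 pericentral hepatocyte gene higher. The hepatocyte markers, defined by Alb and others, summed to 83652 to 104909 CPM in the low-ratio and 79489 to 97994 in the high-ratio livers. Taken singly, 4 of these 5 markers had a difference above 0 and 1 an unadjusted p under 0.05, with a median of 0.20. Of the 8 pericentral hepatocyte markers 7 had a difference above 0 and 2 an unadjusted p under 0.05, and their sums were 9763 to 12344 against 10247 to 15594 CPM. The cholangiocyte markers, all 5 with a difference below 0, summed to 48.2 to 91.4 against 31.8 to 62.9 CPM, and the red blood cell markers, also all 5 below 0, to 96.3 to 483 against 85.6 to 258 CPM. Of the 6 endothelial markers 3 had an unadjusted p under 0.05, and their sums were 192 to 264 against 186 to 233 CPM. The stellate cell sums were 333 to 489 against 298 to 419 CPM, and Kupffer cell sums 157 to 306 against 164 to 312 CPM. T and NK cell, B cell and neutrophil sums stayed under 7 CPM in each liver, adipocyte and exocrine pancreas sums under 1 CPM. The part of these differences in the gene results was not tested.

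The 5 chow-fed livers had no part in choosing the groups, and their own spread in the ratio gave a separate reading of the same genes. A slope on the ratio was fitted for 17036 genes with edgeR, and 12 had an adjusted p under 0.05, or 0.0704%, of which only Gadd45a was among the named genes. Of the 105 genes called in HFD livers 81 (77.1%) had a chow slope of the same sign as their difference, against 67.5% of all 16707 genes tested in both. An unadjusted p under 0.05 for the chow slope was reached by 30 of the 105 genes (28.6%), 25 with the same sign and 5 with the opposite sign, and by 1629 of the 16707 genes (9.75%). By direction, 48 of 58 higher genes and 33 of 47 lower genes had the same sign. Because 5 livers decide these slopes, leaving 1 out moved the number of called genes between 0 (without mouse 5) and 52 (without mouse 1), with 9, 2 and 3 without mice 2, 7 and 10.

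Slopes are given in log2 units of a gene for each unit of log2 ratio. Nr1d1 had a slope of 1.99 (SE 0.30, unadjusted p = 0.000158, adjusted p = 0.110 by edgeR) in the chow-fed livers, where it ran from 3.24 to 126 CPM, and 0.20 (SE 0.03) in the 15 HFD livers. Cry1 had slopes of -0.64 (SE 0.08) and -0.21 (SE 0.03), and Tef 0.34 (SE 0.11) and 0.27 (SE 0.02), in chow-fed and HFD livers. Gadd45a had a chow slope of 1.33 (SE 0.15, adjusted p = 0.0377 by edgeR) and an HFD slope of 0.16 (SE 0.04). Of the 37 called named genes 8 had a chow slope opposite in sign to their difference in HFD livers, namely Usp2, G6pc, Per2, Wee1, Tubb2a, Idi1, Cyp51 and Insig2. Usp2 had slopes of -0.79 (SE 0.23, unadjusted p = 0.00982 by edgeR) in chow-fed and 0.47 (SE 0.06) in HFD livers, and G6pc had 0.39 (SE 0.17, unadjusted p = 0.0445 by edgeR) and -0.17 (SE 0.03). The other 6 had chow slopes whose 95% intervals included 0. Per3 had 0.14 (SE 0.20) in chow-fed livers, where it stayed between 2.25 and 4.67 CPM, against 0.48 (SE 0.02) in HFD livers. Differences between chow and HFD slopes were not tested, and the chow-fed livers covered another range of the ratio.

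**Figure D5:**
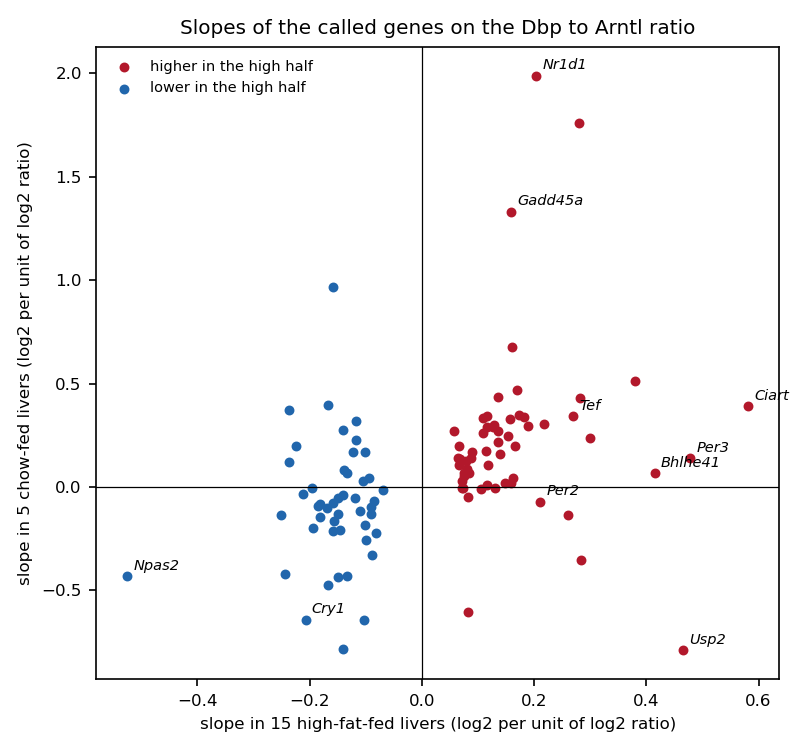
Slope on the log2 ratio of Dbp to Arntl in the 15 HFD livers (horizontal axis) and the 5 chow-fed livers (vertical axis) for the 105 genes called between high-ratio and low-ratio HFD livers, in log2 units per unit of ratio. Red genes were higher and blue genes lower in the high-ratio livers, and 81 of the 105 points lie on the side of 0 that matches their difference.

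Whether a gene followed the ratio differently in fishmeal, salmon and beef livers was tested with an interaction term over the 15 HFD livers. With edgeR 0 of 17754 genes (0%) reached an adjusted p under 0.05, and 536 reached an unadjusted p under 0.05. DESeq2 called 1, the pseudogene Mid1-ps1, whose counts ran from 0 to 48. With 4 to 6 livers in a diet, this does not show that the slopes were alike.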

How the data were processed

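Stranded mRNA libraries from 20 livers were read from both ends. Per the labels and the paper, the authors trimmed reads, mapped them with HISAT2 1.2.1 and assigned them to Ensembl genes with featureCounts 1.4.6-p1. The genome is printed there as a human build number although the species is mouse, and settings for strand and for reads that fit several genes are not given in the sources used here. RNA integrity is given as a range only. The deposited counts are raw counts for 55487 identifiers. The authors also deposited TPM, which scale counts by gene length and library size, and these served for levels between genes only. In 20 of 20 cases the count column matched best the TPM column of the same mouse. Symbols (55141 identifiers) and gene positions came from GENCODE M21 on GRCm38, and promoter sequences from RefSeq on GRCm38.p6. Shared sequence was searched as exact words of 50 bases.

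Members and gene lists were chosen with earlier results of these data known. Ratios used CPM from column totals. The model was edgeR 4.0 in R 4.3 with diet (by label) and group, TMM factors, filterByExpr at a minimum count of 10, and quasi-likelihood tests counting both directions. Dbp and Arntl stayed in the fit and were left out before Benjamini-Hochberg adjustment at 0.05. CPM values use TMM factors over 20 libraries. The chow fit had the ratio alone, and the diet fit an interaction of diet and ratio. All 31 pairs of HFD libraries within a diet differed by more than counting noise (chi-square per gene 35.1 to 457). Each library is another mouse, so the spread is between animals. Genes were named by rule: all clock list members, the 10 highest and 10 lowest called protein coding genes whose groups did not overlap and whose mean was 1 CPM or more, and for each other list up to 4 called genes of smallest p, or else the gene of smallest p. Some genes of the lists stayed in the fits and list counts and are not reported here one by one. In the lists, 313 symbols were found. Code was tested on simulated data. Alternatives were DESeq2 1.42, other scaling and filters, the header's diet for mouse 31, no diet term, the continuous ratio, 5 against 5 livers and each liver left out. Leaving out mice 31 and 35 together was chosen after seeing the data. No columns of the authors' own comparisons were used.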

Additional observations from a re-analysis of the deposited data

Results flagged for a closer look

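The values of each named gene in the 7 high-ratio and in the 7 low-ratio livers were searched for 1 liver standing far from the rest on the log2 scale, meaning that its gap to the nearest liver took a larger share of the range of the group than Dixon's critical value. Chance alone marks about 1 in 20 such sets. Of 114 sets 3 were marked, and no explanation was tested for any of them. Nfil3 was 23.7 CPM in high-ratio salmon mouse 23, above 10.6 to 14.3 in the other high-ratio livers, and Slc30a10 was 62.4 CPM in the same liver, above 41.9 to 49.6. Salmon mouse 23 had the lowest ratio of the high-ratio livers. Gfod1 was 7.87 CPM in low-ratio salmon mouse 31, above 4.92 to 5.45 in the other low-ratio livers, and this is the liver whose label and header name different diets.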

How the results depend on the processing

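The 105 genes called in the main comparison (58 higher, 47 lower) kept their direction in every alternative that tested them. Against those counts, DESeq2 gave 567 (368 higher, 199 lower), of which 103 were among the 105, and edgeR without a filter on low counts gave 555 (383 and 172), of which 105 were. Mouse 31 as beef-fed gave 207 (113 and 94), no diet term 234 (132 and 102), and the 5 highest against the 5 lowest livers 25 (11 and 14), of which 15 were among the 105. Leaving out mice 31 and 35, chosen after seeing the data, gave 64 (27 and 37). With 1 liver left out the counts were 6 to 1093, 2 to 841 higher and 4 to 252 lower. DESeq2 size factors, upper quartile factors, at least 10 counts in every library and the continuous ratio gave 103, 96, 103 and 110. Of these, 103, 87, 98 and 61 were among the 105.

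Of the 37 called named genes 26 lost the call with 5 against 5 livers, 10 without mice 31 and 35, 9 on the continuous ratio, 3 with upper quartile factors, 3 without diet, 1 with DESeq2 size factors, 1 with the strict filter and 0 otherwise, apart from single livers left out. The difference of Fbxl21, which was not called, was -0.114 to 0.0418 with 1 liver left out and turned above 0, to 0.0418, 0.00314 and 0.0140, without fishmeal mouse 13, fishmeal mouse 14 and salmon mouse 25.

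List medians moved by more than the spread between livers for the clock kinases and ligases (-0.0724 with upper quartile factors, -0.0682 to -0.00295 with 1 liver left out), for PAR bZIP factors and NFIL3, xenobiotic metabolism and the unfolded protein response with 5 against 5 livers (0.46, 0.18 and -0.23), and for sterol uptake and SREBP-2 control with 1 liver left out (0.0127 to 0.21). In chow-fed livers the 12 calls became 255 with DESeq2, 102 without a filter and 0 to 52 with 1 liver left out. The interaction with diet had 0 calls in each edgeR fit and 1 with DESeq2. The causes were not tested. Without beef mouse 32, no liver labelled beef is left in the low-ratio group.

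No paired analysis was possible because each mouse has a number of its own and the groups share none. Genes under about 1 CPM, such as Ciart and Bhlhe41 in the low-ratio livers, rest on few counts. Sampling time, cage and order of collection are not in the labels, and their part in the results was not tested.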
